A study of Caenorhabditis elegans with 6 samples.

Results

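The genes described here encode the acid hydrolases of the worm gut and lysosome and the proton pump that acidifies these compartments. They were chosen by name from a table of 20422 Caenorhabditis elegans genes: every gene named asp, cpr, cpl, cpz, pho, ges or vha followed by a number. The name pattern holds no measured value, but it was set with earlier results of these data known. It gave 47 genes. These were 6 aspartic protease genes, 9 cysteine protease genes, 12 acid phosphatase genes, the gut esterase gene ges-1 and 19 genes of the vacuolar proton ATPase (V-ATPase).

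RNA of whole sterile adults was compared between 3 samples of double mutants, daf-2; mes-1, and 3 samples of single mutants, mes-1. The double mutants (strain SS1224) carry daf-2(e1370) on chromosome III and mes-1(bn84ts) on chromosome X, and the single mutants (strain SS0415) carry mes-1(bn84ts) alone. The gene daf-2 encodes the insulin/IGF-1 receptor, and both genotypes carry the temperature-sensitive mes-1 allele, which leaves many worms without a germline. The labels' protocols state that worms began as embryos at 24°C, larvae grew at 15°C from day 1 to day 5, and 100 adults in which no embryos were visible were picked for each sample on day 6, after a return to 24°C. Each sample is thus a pool of whole worms chosen by eye, and the labels do not say whether the samples of a genotype came from separate cultures.

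Aspartic proteases and papain-type cysteine proteases (cathepsins) break down proteins at acid pH, both in lysosomes and in the gut lumen of nematodes. Acid phosphatases remove phosphate groups from food and from cell constituents, and the gut esterase cleaves carboxylic esters. The V-ATPase has a cytosolic V1 part, which hydrolyses ATP, and a membrane V0 part with a ring of proteolipid c subunits, through which protons pass. In the worm, different a subunits of V0 serve different tissues, and vha-6 is the form of the intestine.

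Sterile daf-2; mes-1 adults had less RNA of many of these hydrolases than mes-1 adults. Of the 47 genes, 42 had an adjusted p, and the authors' deposited table called 14 of them lower and 0 higher in daf-2; mes-1 (adjusted p under 0.05, DESeq2). Over all 9820 genes with an adjusted p, 6.35% were called lower and 3.92% higher, and 10.3% in either direction. The 14 lower genes were 4 aspartic proteases, 4 cysteine proteases, 3 acid phosphatases and 3 V-ATPase subunits. As log2 fold changes (double over single mutants), the values of these 14 genes in the authors' deposited table ran from -0.62 to -3.67, and 10 of them were at or beyond -1. Of the 42 genes, 36 had a negative value and 6 a positive one, and the median was -0.50, against -0.03 over all genes with an adjusted p. At an unadjusted p under 0.05, bounded from the adjusted values, 23 of the 42 were lower and 0 higher, against 999 lower and 764 higher of all 9820 genes.

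Many of these genes were abundant, and more of the abundant genes were called. Of the 42 genes, 34 had a mean normalized count of at least 100 over the 6 samples, and 12 of these 34 were called lower. Among all 2653 genes at that level with an adjusted p, 11.4% were called lower and 7.39% higher. By summed RPKM, a level per gene length, the 47 genes held 1.79% of the total in the double mutants and 2.78% in mes-1 single mutants in the authors' deposited table. The 5 genes without an adjusted p were cpr-2, pho-6, pho-7, pho-10 and vha-18, all with a mean normalized count under 10. The table holds 1 RPKM for each genotype and no value for a single sample, so the spread between samples and any overlap between genotypes cannot be shown. An upper bound for the standard error of each log2 fold change was derived from its adjusted p, and it lay between 0.20 and 0.58 for the 42 genes.

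**Figure D1:**
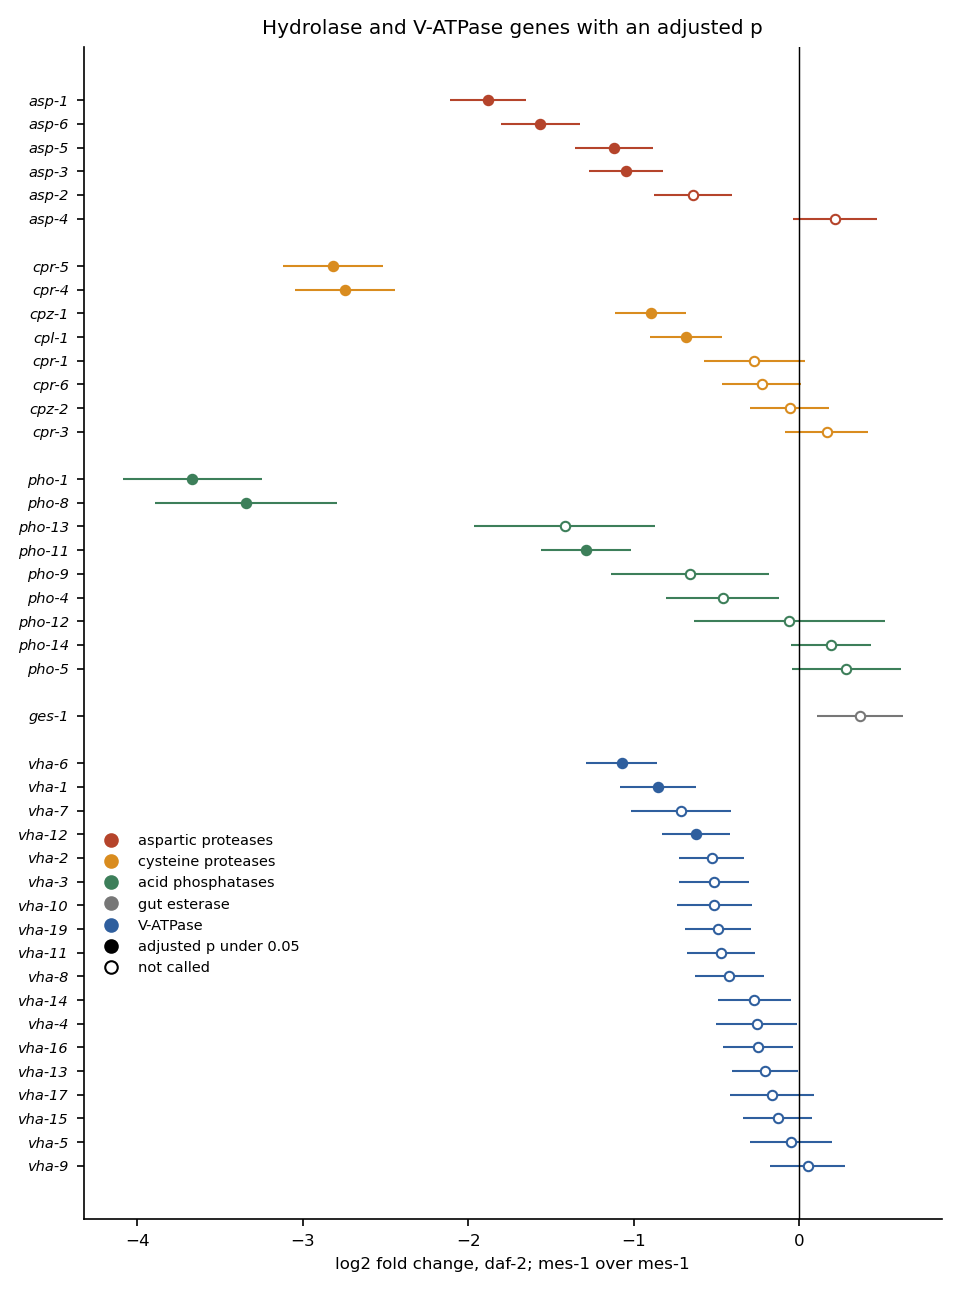
Log2 fold change, daf-2; mes-1 over mes-1 (horizontal axis) for the 42 genes with an adjusted p, by class, with filled points for an adjusted p under 0.05 and lines that span the implied standard error (at most) to either side. All 14 filled points lie left of 0, from vha-12 at -0.62 to pho-1 at -3.67, and most V-ATPase points lie close together just left of 0.

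**Figure D2:**
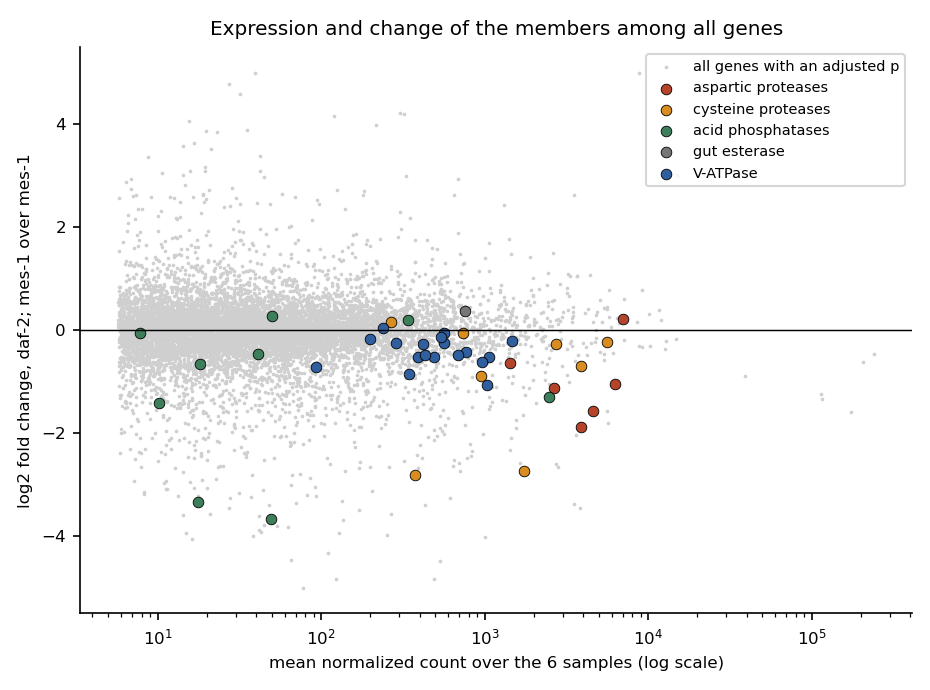
Log2 fold change, daf-2; mes-1 over mes-1 (vertical axis) against the mean normalized count over the 6 samples (horizontal axis, log scale), with all 9820 genes with an adjusted p in grey and the 42 hydrolase and V-ATPase genes in colour. The proteases sit among the abundant genes and mostly below 0, while most acid phosphatases are scarce.

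The aspartic proteases were the class with the highest RNA level, and 4 of the 6 fell. The gene asp-1, an aspartic protease of intestinal cells on chromosome V from 19049094 to 19050796, had an RPKM of 508 in the double mutants, against 1956 in mes-1 single mutants, in the authors' deposited table. Its log2 fold change there was -1.88 (DESeq2 adjusted p = 5.78e-14), the strongest fall of the class. For asp-6 (chromosome V, 8267526 to 8268919), the RPKM was 789 in the double mutants and 2444 in mes-1 single mutants in the authors' deposited table (a log2 fold change of -1.56, DESeq2 adjusted p = 5.18e-09). In mes-1 worms asp-6 had the highest RPKM of the class.

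The other falls of this class were about as large as each other. In the authors' deposited table asp-5 (chromosome V, 8272355 to 8274027) had an RPKM of 572 in the double mutants and 1284 in mes-1 single mutants, with a log2 fold change of -1.12 (DESeq2 adjusted p = 6.04e-05). The gene asp-3, on chromosome X from 6791025 to 6792676, encodes a lysosomal protease related to cathepsin D. It had 1105 in the double mutants and 2336 in mes-1 single mutants by RPKM in the authors' deposited table (a log2 fold change of -1.05, DESeq2 adjusted p = 7.17e-05). Neither gene has a neighbour whose exons overlap it on the opposite strand.

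By contrast, asp-4, a second cathepsin D relative, which acts with asp-3 in the necrotic death of neurons, was not called. Its RPKM was 2111 in the double mutants and 1796 in mes-1 single mutants in the authors' deposited table, with a log2 fold change of 0.21 (DESeq2 adjusted p = 0.843). It was the most abundant hydrolase gene in the double mutants, at rank 49 of all genes by RPKM, where it made up 38.9% of the summed RPKM of the class, against 17.3% in mes-1 single mutants. Whether its value differs from those of the other aspartic proteases could not be tested without single samples. The remaining member, asp-2, missed the threshold with a log2 fold change of -0.64 (DESeq2 adjusted p = 0.0612) in the authors' deposited table. Exons of asp-2 and asp-4 overlap inx-10 and R12H7.4 on the opposite strand, and the library kit named in the labels does not mark strand, so such reads cannot be told apart. Such overlaps touched 13 of the 47 genes and 2 of the 14 that fell, pho-1 and pho-11.

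The summed RPKM of the 6 aspartic proteases was 5426 in the double mutants and 10361 in mes-1 single mutants, a ratio of 0.524. For the 9 cysteine proteases the sums were 4704 in the double mutants and 7575 in mes-1 single mutants, a ratio of 0.621. Over all genes the summed RPKM was 793602 in the double mutants and 862145 in mes-1 single mutants, a ratio of 0.92. These sums are of the authors' values, 1 per genotype, and carry no test.

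Among the cysteine proteases, 4 of the 8 genes with an adjusted p fell, and a pair of cathepsin B-like genes fell most. The gene cpr-4, on chromosome V from 6614657 to 6615828, encodes a cathepsin B-like protease that can be secreted. Its RPKM was 168 in the double mutants and 1272 in mes-1 single mutants in the authors' deposited table, a 6.69-fold fall on the DESeq2 scale (log2 fold change -2.74, adjusted p = 2.47e-17). For cpr-5 (chromosome V, 1132598 to 1133994), the authors' deposited table gave 30.8 in the double mutants and 243 in mes-1 single mutants by RPKM (a log2 fold change of -2.82, DESeq2 adjusted p = 2.49e-18). This was the smallest adjusted p of all 42 genes. The share of cpr-4 in the summed RPKM of the cysteine proteases was 3.58% in the double mutants and 16.8% in mes-1 single mutants.

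The single cathepsin L gene and a cathepsin Z gene fell less. The cathepsin Z gene cpz-1 (chromosome I, 2686642 to 2689475), which is needed for moulting, had an RPKM of 276 in the double mutants and 522 in mes-1 single mutants in the authors' deposited table (a log2 fold change of -0.90, DESeq2 adjusted p = 4.98e-04). The gene cpl-1 (chromosome V, 16592550 to 16595327) encodes the cathepsin L that processes yolk proteins in embryos. It had 1196 in the double mutants and 1980 in mes-1 single mutants by RPKM in the authors' deposited table (a log2 fold change of -0.69, DESeq2 adjusted p = 0.0199). With vha-12 it was 1 of the 2 called genes that would miss an adjusted p of 0.01.

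Other cathepsins were abundant and not called. For cpr-6, the cysteine protease with the highest RPKM, the authors' deposited table gave 1809 in the double mutants and 2130 in mes-1 single mutants (a log2 fold change of -0.23, DESeq2 adjusted p = 0.795). The gut-expressed cpr-1 had 949 in the double mutants and 1156 in mes-1 single mutants by RPKM in the authors' deposited table (a log2 fold change of -0.27, DESeq2 adjusted p = 0.83). For cpz-2 the authors' deposited table gave a log2 fold change of -0.06 and for cpr-3 one of 0.16, and cpr-2 was listed at 0 in both genotypes. Within this class the 8 values thus ran from -2.82 to 0.16.

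**Figure D3:**
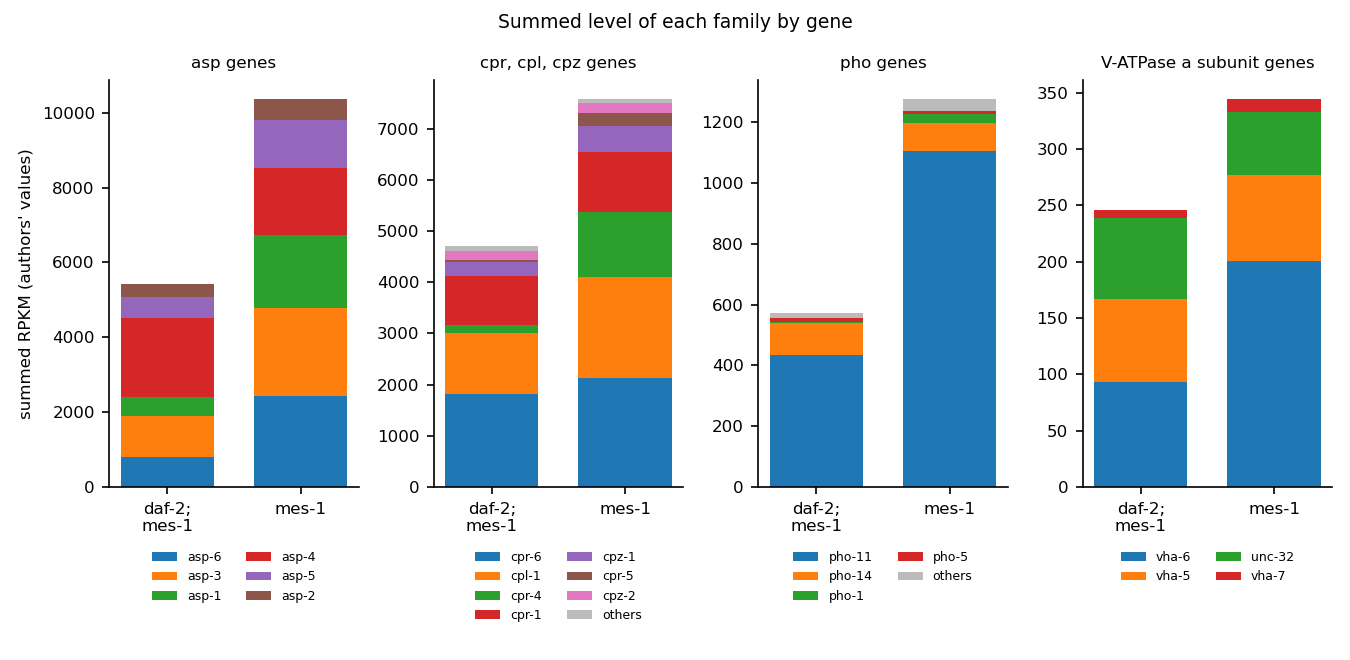
Summed RPKM (vertical axes, each panel with its own scale) of the asp, the cpr, cpl and cpz, the pho and the V-ATPase a subunit genes in the double mutants (left bar) and mes-1 (right bar), divided by gene. Each sum is lower in the double mutants, and asp-4, cpr-6 and unc-32 take larger shares there.

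Inhibitors of these cathepsins are the cystatins, of which the worm genes cpi-1 and cpi-2 were among the lysosomal genes listed for this description. In the authors' deposited table cpi-1 rose in the double mutants, with an RPKM of 3637 there and 1636 in mes-1 single mutants (a log2 fold change of 1.10, DESeq2 adjusted p = 1.40e-04). For cpi-2 the authors' deposited table gave 864 in the double mutants and 656 in mes-1 single mutants, with a log2 fold change of 0.36 that was not called (DESeq2 adjusted p = 0.46). The RPKM of cpi-1 was above that of any of the 47 hydrolase and V-ATPase genes in the double mutants.

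The acid phosphatases varied most among themselves, with log2 fold changes from -3.67 to 0.28 for the 9 of 12 genes with an adjusted p. Of these, 3 fell. The gene pho-1 (chromosome II, 5233145 to 5235913) encodes an intestinal acid phosphatase whose activity has long served as a stain for gut cells. Its RPKM was 1.49 in the double mutants and 27.4 in mes-1 single mutants in the authors' deposited table (a log2 fold change of -3.67, DESeq2 adjusted p = 5.3e-16). On the opposite strand EGAP2.1 shares exon sequence with pho-1, and for it the authors' deposited table gave an RPKM of 2.21 in the double mutants and 3.31 in mes-1 single mutants.

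The most abundant acid phosphatase gene also fell. For pho-11 (chromosome II, 9931786 to 9934384), the authors' deposited table gave an RPKM of 433 in the double mutants and 1106 in mes-1 single mutants (a log2 fold change of -1.29, DESeq2 adjusted p = 5.55e-05). Its exons overlap those of C05C10.3 on the opposite strand, whose RPKM was 20.3 in the double mutants and 58.7 in mes-1 single mutants in the authors' deposited table, far under that of pho-11. Because pho-11 made up 75.6% of the summed RPKM of the class in the double mutants and 86.7% in mes-1 single mutants, it set most of the sums of 574 in the double mutants and 1276 in mes-1 single mutants.

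The scarce gene pho-8 (chromosome V, 11833610 to 11835632) had an RPKM of 0.355 in the double mutants and 11.1 in mes-1 single mutants in the authors' deposited table (a log2 fold change of -3.34, DESeq2 adjusted p = 7.14e-08). Its mean normalized count was 17.7, and the log2 ratio of its RPKM values was -4.96, so the DESeq2 value is nearer 0 than the ratio. The other 6 tested phosphatases were not called, and they included 4 negative and 2 positive values. Of these pho-13 was farthest from 0 in the authors' deposited table, at -1.42 (DESeq2 adjusted p = 0.0815), with a mean normalized count of 10.1. The more abundant pho-14 had an RPKM of 107 in the double mutants and 93.1 in mes-1 single mutants in the authors' deposited table, with a log2 fold change of 0.19.

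The gut esterase gene ges-1, a classical marker of the intestinal lineage, had the highest log2 fold change of the 42 genes, and it was not called. Its RPKM was 195 in the double mutants and 149 in mes-1 single mutants in the authors' deposited table, with a log2 fold change of 0.37 (DESeq2 adjusted p = 0.574). It lies on chromosome V from 1427650 to 1432139.

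The V-ATPase genes had mostly small negative values, and 3 of the 18 with an adjusted p fell (16.7%). Over all genes with an adjusted p, 6.35% were called lower, and 11.4% of those with a mean normalized count of at least 100. At an unadjusted p under 0.05, bounded from the adjusted values, 10 of the 18 were lower and 0 higher. Of the 18, the authors' deposited table gave 17 a negative log2 fold change, against 52.5% of all genes with an adjusted p, with a median of -0.45 and quartiles of -0.53 and -0.22. Subunits of 1 complex are not independent of each other, and these counts carry no test. The summed RPKM of the 19 genes was 3335 in the double mutants and 4570 in mes-1 single mutants, a ratio of 0.73. For the 28 hydrolase genes the ratio was 0.563, and over all genes it was 0.92.

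The strongest fall was that of the intestinal a subunit. The gene vha-6 (chromosome II, 11435147 to 11438400) had an RPKM of 93.0 in the double mutants and 201 in mes-1 single mutants in the authors' deposited table (a log2 fold change of -1.07, DESeq2 adjusted p = 1.86e-05). The a subunit gene vha-5, which serves the excretory cell and the epidermis, had 73.5 in the double mutants and 76.1 in mes-1 single mutants by RPKM in the authors' deposited table, with a log2 fold change of -0.05 (DESeq2 adjusted p = 0.979). For vha-7, a scarcer a subunit gene, the authors' deposited table gave 6.79 in the double mutants and 11.6 in mes-1 single mutants (a log2 fold change of -0.72, DESeq2 adjusted p = 0.141).

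The a subunit of neurons is encoded by unc-32, which the naming rule does not take in. Its RPKM was 72.7 in the double mutants and 56.0 in mes-1 single mutants in the authors' deposited table, with a log2 fold change of 0.38 (DESeq2 adjusted p = 0.321). Of the summed RPKM of the 4 a subunit genes, 246 in the double mutants and 344 in mes-1 single mutants, vha-6 took 37.8% in the double mutants and 58.3% in mes-1 single mutants. The share of unc-32 was 29.6% in the double mutants and 16.3% in mes-1 single mutants, and that of vha-5 was 29.9% in the double mutants and 22.1% in mes-1 single mutants. These shares have no error, since each rests on 1 value per genotype.

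Of the proteolipid ring genes 1 of 4 fell. In the authors' deposited table vha-1, a c subunit gene on chromosome III from 9781157 to 9781971, fell to an RPKM of 150 in the double mutants, against 285 in mes-1 single mutants (a log2 fold change of -0.85, DESeq2 adjusted p = 0.00352). In the authors' deposited table neither of the other c subunit genes was called, with a log2 fold change of -0.53 for vha-2 (DESeq2 adjusted p = 0.0655) and of -0.52 for vha-3 (DESeq2 adjusted p = 0.123). The RPKM of vha-2, the highest of the complex, was 490 in the double mutants and 721 in mes-1 single mutants in the authors' deposited table, and that of vha-3 was 341 in the double mutants and 500.2 in mes-1 single mutants. The c subunit genes are close relatives, and how the counting divided reads between them is not known. Among the other V0 genes the log2 fold changes were -0.26 for vha-4 (c″), -0.25 for vha-16 (d) and -0.17 for vha-17 (e) in the authors' deposited table, none of them called.

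Of the V1 genes, vha-12 was called. It encodes the B subunit (chromosome X, 4191068 to 4193120), and its RPKM was 153 in the double mutants and 239 in mes-1 single mutants in the authors' deposited table (a log2 fold change of -0.62, DESeq2 adjusted p = 0.0287). Its partner in the catalytic ring, the A subunit gene vha-13, had 239 in the double mutants and 291 in mes-1 single mutants by RPKM in the authors' deposited table, with a log2 fold change of -0.21 (DESeq2 adjusted p = 0.754). Among the stalk subunit genes, the authors' deposited table gave a log2 fold change of -0.51 for vha-10 (G), -0.47 for vha-11 (C), -0.42 for vha-8 (E) and -0.27 for vha-14 (D). It was -0.13 for the H subunit gene vha-15 and 0.05 for the F subunit gene vha-9, the single positive value of the complex, in the authors' deposited table. For vha-19, an accessory subunit gene, the log2 fold change was -0.49 (DESeq2 adjusted p = 0.109) in the authors' deposited table.

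Levels of the V1 genes other than vha-18 lay within a narrow span in both genotypes, from 88.3 to 292 RPKM in the double mutants and from 124 to 390 RPKM in mes-1 single mutants. The lowest was vha-11 and the highest vha-8 in each. The alternative H subunit gene vha-18 was scarce, with an RPKM of 0.363 in the double mutants and 0.886 in mes-1 single mutants in the authors' deposited table, and had no adjusted p. Without vha-6, the median log2 fold change of the other 17 V-ATPase genes was -0.42.

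**Figure D4:**
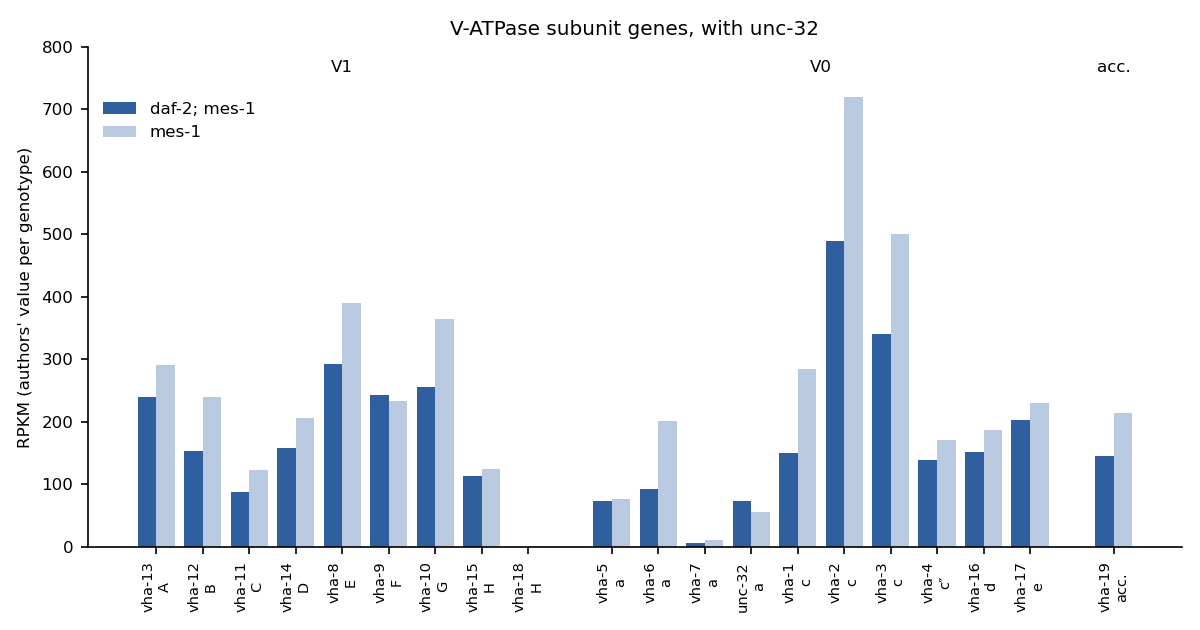
RPKM (vertical axis) of the 19 V-ATPase genes and of unc-32 in the double mutants (dark, left bar) and mes-1 (light, right bar). Genes are grouped into the V1 part, the V0 part and the accessory subunit gene vha-19 (acc.), with the subunit letter under each gene. Bars are lower in the double mutants for all genes but vha-9 and unc-32, and the gap is widest, as a ratio among the called genes, at vha-6.

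Genes of the same families that had no family name when the table was made gave a mixed picture for the aspartic proteases. By present symbols, 14 genes listed under sequence names match the same naming pattern, and 9 of them had an adjusted p. Of these 9, the authors' deposited table called 5 lower (55.6%) and 1 higher (DESeq2). Over all genes with an adjusted p, 6.35% were called lower and 3.92% higher. The strongest fall was asp-17, listed as Y39B6A.24, with an RPKM of 4.97 in the double mutants and 91.9 in mes-1 single mutants in the authors' deposited table (a log2 fold change of -3.70, DESeq2 adjusted p = 1.53e-17). The single rise was asp-9, listed as C11D2.2, with 17.4 in the double mutants and 2.61 in mes-1 single mutants by RPKM in the authors' deposited table (a log2 fold change of 2.42, DESeq2 adjusted p = 2.75e-06). By log2 fold change, the authors' deposited table gave the other falls as asp-12 (-1.33), asp-14 (-0.99), cpr-8 (-0.97) and cpr-9 (-0.97). Of these cpr-9 was the most abundant, with an RPKM of 377 in the double mutants and 757 in mes-1 single mutants. The V-ATPase gene vha-20, listed as R03E1.2, was not called (a log2 fold change of -0.43, DESeq2 adjusted p = 0.269). Its RPKM was 129 in the double mutants and 180 in mes-1 single mutants in the authors' deposited table.

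Several of the genes that fell lie next to each other. The genes asp-6, asp-12 and asp-5 follow each other on chromosome V with gaps of 314 and 316 bases, and all 3 fell in the authors' deposited table. On the same chromosome cpr-5 and cpr-8 lie 609 bases apart on opposite strands, and both fell in the authors' deposited table. On chromosome II, pho-1 and pho-4 are separated by 167 bases on the same strand, yet pho-4 was not called, with a log2 fold change of -0.46 (DESeq2 adjusted p = 0.602) in the authors' deposited table. The c subunit genes vha-1 and vha-2 are 99 bases apart, and vha-11 and vha-3 are 856 bases apart, each pair on the same strand. Chromosome V held 16 of the 47 genes (34.0%, against 25.1% of all genes), among them 7 of the 9 cysteine proteases and 7 of the 14 genes that fell. All positions and gaps are those of the table, in a genome build not given in the sources used here. They differ from WBcel235, the assembly behind the exon overlaps, where 1 of the 47 genes has the same start and end, so the overlaps were taken by gene ID and not by these positions.

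Among lysosomal genes outside these families, the called ones were mostly lower. Of 53 such genes matched to the table, unc-32 among them, 51 had an adjusted p, and the authors' deposited table called 10 lower and 2 higher in the double mutants (DESeq2). The share called lower was 19.6%, against 6.35% of all genes with an adjusted p, and the 2 higher genes are about the share of 3.92% found over all genes. The median log2 fold change of the 51 genes was -0.11. The falls included the DNase II gene nuc-1, which digests DNA in the gut lumen and in lysosomes, with an RPKM of 35.9 in the double mutants and 218 in mes-1 single mutants in the authors' deposited table (a log2 fold change of -2.48, DESeq2 adjusted p = 2.77e-17). The glucocerebrosidase-related gene gba-2 had an RPKM of 0.579 in the double mutants and 16.6 in mes-1 single mutants in the authors' deposited table (DESeq2 adjusted p = 2.89e-15). By log2 fold change, the authors' deposited table gave its relatives gba-1 and gba-4 as -1.31 and -1.01, and exons of gba-1 and gba-2 overlap on opposite strands. The acid glucosidase relatives aagr-2 and aagr-1 had -1.41 and -1.36, the acid sphingomyelinase gene asm-3 had -2.17, and the acid ceramidase relative asah-2 had -1.69 in the authors' deposited table. The remaining falls were those of pcp-2, a prolyl carboxypeptidase relative (-2.24), and of cln-3.1, a relative of the human Batten disease gene (-2.39), in the authors' deposited table. Besides cpi-1, the gene that rose was asm-2, an acid sphingomyelinase gene, with a log2 fold change of 1.51 (DESeq2 adjusted p = 1.01e-05) in the authors' deposited table.

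Some genes of the lysosomal membrane, and the gene of a regulator of lysosomes, were among those not called. They were picked for naming after their values were seen and do not stand for all membrane genes. Of these the authors' deposited table gave a log2 fold change of 0.48 for the membrane glycoprotein gene lmp-1 (adjusted p = 0.185), 0.08 for scav-3 (adjusted p = 0.954) and -0.27 for the mucolipin gene cup-5 (adjusted p = 0.863, all DESeq2). For hlh-30, the TFEB homologue that activates lysosomal genes, the authors' deposited table gave -0.05 (DESeq2 adjusted p = 0.973). By RPKM the authors' deposited table gave the asparaginyl endopeptidase gene lgmn-1 387 in the double mutants and 391 in mes-1 single mutants.

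**Figure D5:**
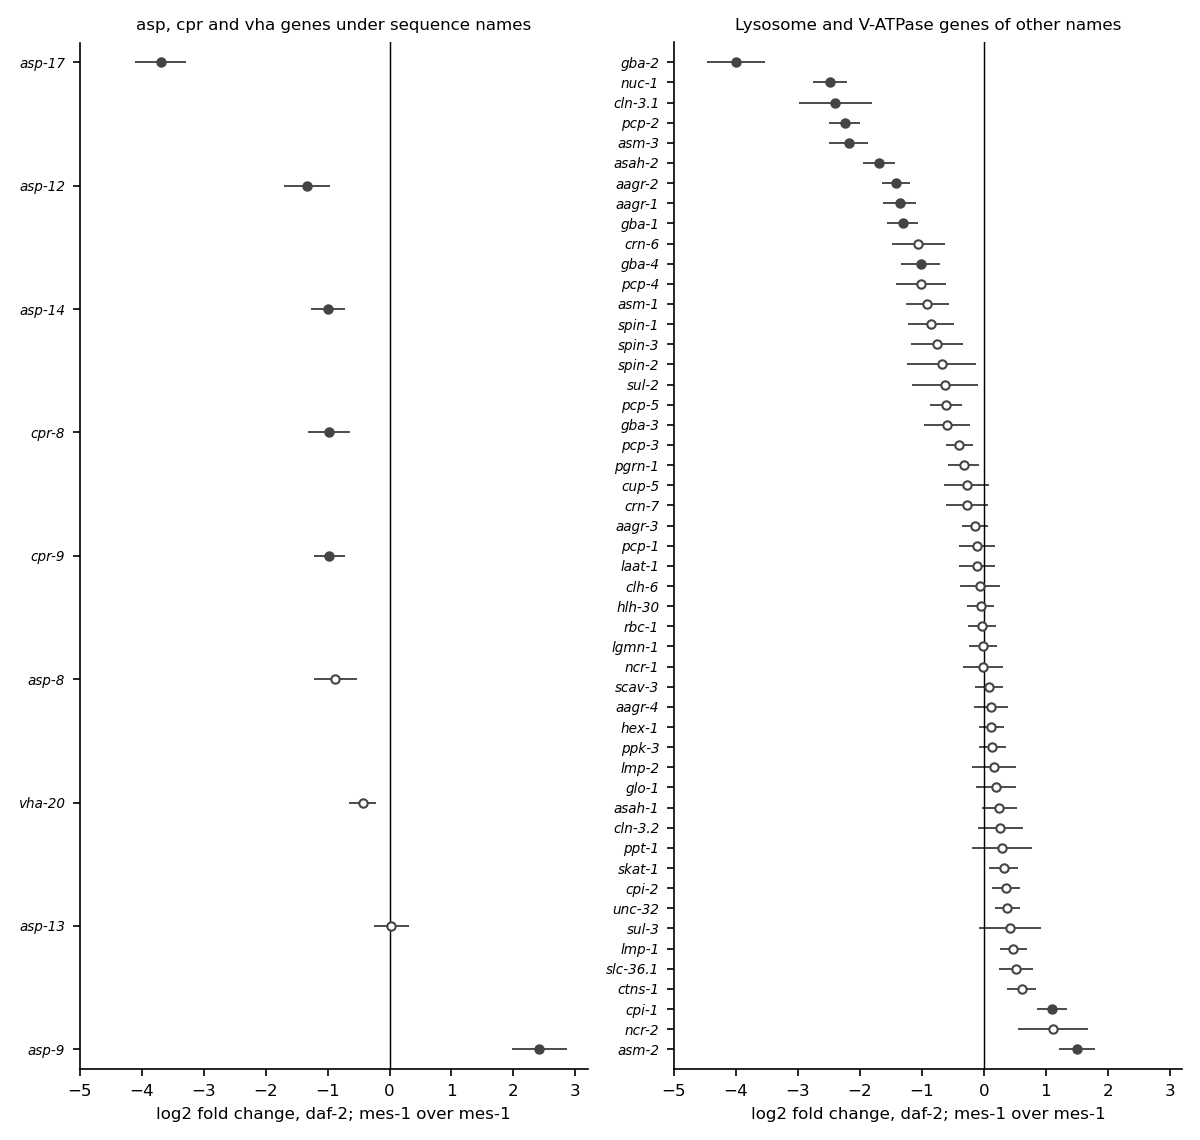
Log2 fold change, daf-2; mes-1 over mes-1 (horizontal axes) for 9 asp, cpr and vha genes listed under sequence names (left) and for lysosomal genes of other names (right), with filled points for an adjusted p under 0.05 and lines that span the implied standard error (at most) to either side. The left panel has 5 filled points below 0 and asp-9 above it, and the right panel 10 below and 2 above. The gene gana-1, with a value near 0, is not drawn because its bound is not informative.

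Many markers of the intestine were lower as well. Of 14 intestine markers outside the 47 genes, the authors' deposited table called 8 lower and 0 higher (DESeq2). That is 57.1% lower, against 6.35% of all genes with an adjusted p, and 6 were not called. Whether each of the 14 is limited to the intestine was not examined. Log2 fold changes of the 14 markers ran from -3.93 for pept-1, which was called lower, to 0.40 for pgp-1, which was not called. Their summed RPKM was 1106 in the double mutants and 3737 in mes-1 single mutants, most of it from mtl-2, a metallothionein gene, and none of the 14 was at 0. The GATA factor gene elt-2, which is specific to the intestine, had an RPKM of 16.4 in the double mutants and 15.5 in mes-1 single mutants in the authors' deposited table. For elt-7, the other GATA factor gene among these markers, the RPKM was 11.7 in the double mutants and 19.6 in mes-1 single mutants. Its log2 fold change was -0.79 (DESeq2 adjusted p = 0.323), and neither gene was called. In RNA of whole worms, fewer or smaller intestinal cells and less RNA of these genes per cell cannot be told apart, and the part of the intestine markers in the hydrolase values was not tested. Of 6 body wall muscle markers 1 was called higher and 0 lower, of 8 neuron markers 1 higher and 0 lower, and of the 4 hypodermis and 6 germline markers with an adjusted p 0 in either direction, in the authors' deposited table (DESeq2). The share called higher was 3.92% over all genes with an adjusted p, and 7.39% of those with a mean normalized count of at least 100. Summed RPKM was 1724 in the double mutants and 1517 in mes-1 single mutants for muscle, 646 in the double mutants and 499 in mes-1 single mutants for neurons, 1317 in the double mutants and 977 in mes-1 single mutants for hypodermis, and 84.3 in the double mutants and 116 in mes-1 single mutants for the germline. The gene col-19, which was not called, gave most of the hypodermis sum (1277 in the double mutants and 934 in mes-1 single mutants). Most of the germline sum came from cgh-1, and without it the other 9 germline markers summed to 15.7 in the double mutants and 38.6 in mes-1 single mutants, each of the 9 with the lower RPKM in the double mutants. The oocyte genes rme-2 and puf-5 had no adjusted p, at mean normalized counts of 28.7 and 23.2, for a reason the sources used here do not give. The authors' deposited table gave rme-2 an RPKM of 0.975 in the double mutants and 6.60 in mes-1 single mutants, and puf-5 one of 1.12 in the double mutants and 7.77 in mes-1 single mutants. Their DESeq2 log2 fold changes were nearer 0 than these RPKM values imply, at -0.56 for rme-2 and -0.68 for puf-5. Without values for single samples, whether 1 sample set these differences cannot be shown. The part of remaining germline RNA in the hydrolase values was not tested.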

How the data were processed

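RNA of 6 samples was sequenced after depletion of ribosomal RNA, per the labels' protocols, and the authors deposited 1 table for the series. The submitters' processing notes name TopHat2 and DESeq2 without versions, and the file headers name Cuffdiff2. Which genome build was used is not stated in these sources. The deposited signal column is the mean DESeq2 normalized count over the 6 samples, per the file headers. The deposited log2 column compares daf-2; mes-1 with mes-1 as a fold change, limited to an absolute value of 5, and the deposited p-value column holds Benjamini-Hochberg adjusted values from DESeq2, limited to 1e-20, per the file headers. The RPKM columns hold 1 value per genotype that the authors made with Cuffdiff2, per the file headers. No column holds a single sample, so read depth is unknown, no new test across samples was made, and the planned count test was replaced by the authors' calls (adjusted p under 0.05). The labels do not say whether samples came from separate cultures, so the spread behind the p-values may be technical.

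An upper bound of each unadjusted p was had by undoing the Benjamini-Hochberg step, which assumes that the table holds all tested genes. The implied standard error is the absolute log2 change over the normal quantile that belongs to that bound. Both steps were tested on simulated data. RPKM ratios used a pseudocount of 1 unless stated. Exon overlaps were taken from the Ensembl release 115 annotation by gene ID, and all 47 IDs matched. Computation used Python 3.11.15, pandas 2.3.3 and SciPy 1.17.1. The genes and lists were chosen with earlier results of these data known. Named genes are all called genes, all V-ATPase genes, 8 genes listed by name and the highest RPKM of each class. Other genes were named after their values were seen. The promoter motif search and the protein comparison that were planned were not run, because no sequences were used here.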

Additional observations from a re-analysis of the deposited data

How the results depend on the processing

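The count of 14 lower genes was retaken with adjusted p thresholds of 0.01 and 0.1, and with a log2 fold change at or beyond 1 in size. It was also retaken with a mean normalized count of at least 100, and without genes whose exons overlap another gene on the opposite strand. The count of lower genes lay between 10 and 17, and that of higher genes was 0 in each. Of these settings, only the threshold of 0.1 could have added genes to either count. Every other setting only removes genes from the main calls, which held 0 higher genes, so its 0 was fixed beforehand and tests nothing. With the family genes listed under sequence names added, a step chosen after seeing the data, the counts were 19 lower and 1 higher. The median log2 fold change of -0.50 lay between -0.53 and -0.47 for RPKM ratios with pseudocounts of 0.1, 1 and 5, for all genes with a fold change, for abundant genes and with the added genes. All 14 called genes had a lower RPKM in the double mutants, a direction that the choice of pseudocount cannot change. The RPKM values come from the same samples as the calls. The size of the ratio depended on the pseudocount for the scarce genes: with pseudocounts of 0.1 and 5 the log2 ratio was -4.62 and -1.58 for pho-8 and -4.11 and -2.32 for pho-1. At an adjusted p under 0.01, cpl-1 and vha-12 were not called.

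Leaving out the gene with the highest RPKM moved the log2 ratio of summed RPKM to -1.37 for aspartic proteases (without asp-4), -0.91 for cysteine proteases (without cpr-6) and -0.28 for acid phosphatases (without pho-11), against -0.93, -0.69 and -1.15 with all genes. The RPKM of asp-4 was the highest of its class in the double mutants only. In mes-1 single mutants that gene was asp-6, and its omission was not tried. No paired analysis was possible because no column holds a single sample, and for the same reason no replicate could be left out and no other normalization tried.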
